A study of Mus musculus with 2 samples.

Results

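The testis-specific serine kinases of the mouse, encoded by Tssk1, Tssk2, Tssk3, Tssk4, Tssk5 and Tssk6, were taken from the deposited table by gene symbol. All 6 were listed among 53801 genes, and 0 other symbols carried the family name. RNA had been prepared from sorted mouse spermatocytes, the meiotic germ cells of the testis. Each genotype had 1 library, Smc1b wild type in one and, per its label, Smc1b knockout overexpressing SMC1alpha in the other. SMC1beta is the meiosis-specific SMC1 subunit of cohesin, the ring that holds sister chromatids together, and SMC1alpha is its counterpart in other cells. Knockout cells that lack the added SMC1alpha were not used here, and the effects of losing SMC1beta and of gaining SMC1alpha cannot be told apart. The labels give no strain, age or number of animals, and the "4N" of the sample titles is not explained there. Levels are in TPM, a length-corrected share of all transcripts. With no replicates, no difference has an error or a test, and "higher" and "lower" describe these 2 libraries.

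TSSK proteins are serine/threonine kinases of the male germ line. They are known mainly from spermatids, the haploid cells that follow meiosis, and from sperm, where they phosphorylate proteins during the reshaping of the round cell into a sperm. In mice, joint loss of Tssk1 and Tssk2, loss of Tssk3 and loss of Tssk6 each cause male infertility, and loss of Tssk4 lowers fertility. In spermatocytes, their transcripts belong to genes whose known products act later.

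The members share the kinase fold, and apart from Tssk1 and Tssk2 their coding sequences were at most 56.4% identical. The stretch shown first is the catalytic loop, the part of a kinase that holds the catalytic aspartate, because it is the most recognisable piece of the family. Coding bases were read from the GENCODE M21 transcripts of GRCm38 tagged CCDS, 5′ to 3′ on the coding strand. Capitals mark the 8 codons of the loop. The positions are chr16:17894743-17894784 (plus strand) for Tssk1, chr16:17899125-17899166 (plus) for Tssk2, chr4:129489452-129489493 (minus) for Tssk3, chr15:76373536-76373654 (minus, split by an intron) for Tssk5 and chr8:69902695-69902736 (plus) for Tssk6.
Tssk1: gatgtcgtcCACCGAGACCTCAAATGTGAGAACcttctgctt
Tssk2: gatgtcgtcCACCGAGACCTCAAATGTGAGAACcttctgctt
Tssk3: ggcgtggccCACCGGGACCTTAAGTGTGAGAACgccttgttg
Tssk5: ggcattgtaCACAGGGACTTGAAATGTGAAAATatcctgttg
Tssk6: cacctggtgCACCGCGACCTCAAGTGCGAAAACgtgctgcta
Tssk1 and Tssk2 had 24 of 24 loop bases in common, Tssk1 and Tssk3 had 21, and Tssk5 and Tssk6 had 17. The searched codon pattern was not found in the Tssk4 transcript used, and that gene is not shown.

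Tssk1 and Tssk2 are the closest pair. Their coding sequences were 77.3% identical over 1110 alignment columns, while the next closest pair, Tssk3 and Tssk6, was 56.4% identical. Reads were 75 bases long, so a read can match both genes without a mismatch only inside a shared run of at least that length. The longest such run held 113 bases and contains the catalytic loop. It is printed in capitals with 9 flanking bases on each side, at chr16:17894714-17894844 for Tssk1 and chr16:17899096-17899226 for Tssk2 (GRCm38, plus strand).
Tssk1: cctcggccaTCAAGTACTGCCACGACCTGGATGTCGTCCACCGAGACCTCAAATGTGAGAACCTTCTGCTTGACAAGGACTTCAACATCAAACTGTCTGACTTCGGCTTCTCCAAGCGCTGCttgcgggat
Tssk2: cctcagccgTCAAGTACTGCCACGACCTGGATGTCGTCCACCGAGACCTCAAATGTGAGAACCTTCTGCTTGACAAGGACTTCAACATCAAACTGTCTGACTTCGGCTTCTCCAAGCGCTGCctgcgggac
Of all 75-base windows, 75 (2.07%) of the Tssk1 transcript and 75 (5.71%) of the Tssk2 transcript also occurred in the other gene. For Tssk3, Tssk4, Tssk5 and Tssk6, 0 windows occurred in the transcript of any other gene. The windows were compared letter for letter, so stretches that differ by a few bases are not counted. They were compared with the sense sequence of transcripts alone. Genes on the opposite strand, such as those that overlap Tssk6, are described with that gene.

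All 6 Tssk genes were lower in the labelled knockout, by 3.16-fold to 11.2-fold in TPM. Their levels summed to 94.2 TPM in wild-type cells and to 16.7 TPM, or 17.7% of that sum, in the labelled knockout. The log2 ratio used throughout divides (TPM + 1) of the labelled knockout by (TPM + 1) of wild type, so that differences of low genes are understated. Genes were counted at 2-fold on that scale if either library reached 1 TPM. On this scale 6 of 6 members were at least 2-fold lower, against 16.5% of 15000 protein-coding genes and 19.3% of all 23148 genes counted. The members' median log2 ratio was -2.04, and the median of these protein-coding genes was -0.05. At 4-fold, 3 of 6 members (Tssk2, Tssk4 and Tssk6) were lower, against 3.28% of protein-coding genes and 3.37% of all genes. Spermatid markers, given below, were lower in the same library, and their part in these values was not tested. In bulk RNA, fewer cells of a type and less RNA per cell cannot be told apart.

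**Figure D1:**
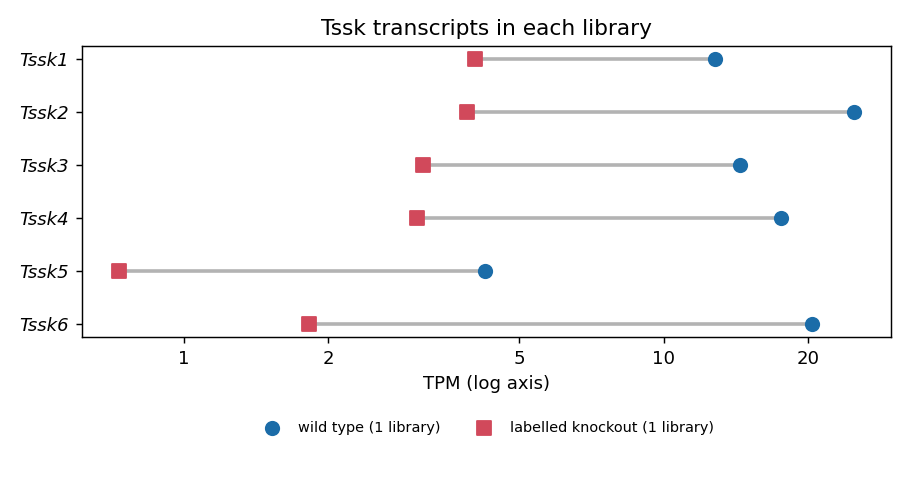
TPM of each Tssk gene (log axis) in the wild-type library (circles) and the labelled knockout library (squares), 1 library each, joined by a line per gene. Every square lies to the left of its circle, and the longest line is that of Tssk6, from 20.4 to 1.82 TPM.

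Tssk1 and Tssk2 encode the pair of kinases that bind the substrate TSKS and are required together for sperm formation in mice. They lie in tandem on chromosome 16 of mm10, on the plus strand. Tssk1 (ENSMUSG00000041566, 17894223 to 17897922) measured 12.8 TPM in wild-type cells and 4.04 TPM in the labelled knockout, a log2 ratio of -1.45. Tssk2 (ENSMUSG00000045521, 17898637 to 17900023) measured 24.9 TPM in wild-type cells and 3.90 TPM in the labelled knockout, a log2 ratio of -2.40. Tssk1 was thus the least lowered member and Tssk2 the next most lowered after Tssk6. The level of Tssk2 was 1.95 times that of Tssk1 in wild type and 0.964 times in the labelled knockout. The table lists Tssk1 with 3700 bases, of which 29.6% are coding, whereas its RefSeq model spans 1451 bases. Which model underlies its TPM is not given in the sources used here, so the order of Tssk1 against other members is less certain than the ratio of Tssk1 between libraries.

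Tssk6, also known as SSTK, is needed in mice for the packing of sperm chromatin. It had the lowest ratio of the family. Tssk6 (ENSMUSG00000047654; mm10 chromosome 8, 69902184 to 69903518, plus strand) measured 20.4 TPM in wild-type cells and 1.82 TPM (8.92% of the wild-type level) in the labelled knockout, a log2 ratio of -2.92. Of the protein-coding genes counted, 0.60% had a lower log2 ratio. It was the second most abundant member in wild type and the fifth in the labelled knockout. Its span overlaps 375 bases of Ndufa13 and 529 bases of Yjefn3 on the opposite strand. The libraries were strand-specific per the labels, and whether the quantification used the strand is not given in the sources used here.

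Tssk3 and Tssk4 had intermediate ratios. Tssk3 (ENSMUSG00000000411; mm10 chromosome 4, 129489014 to 129491022, minus strand) measured 14.4 TPM in wild-type cells and 3.15 TPM in the labelled knockout, a log2 ratio of -1.89. Tssk4 (ENSMUSG00000007591; mm10 chromosome 14, 55650184 to 55652539, plus strand), whose product phosphorylates the outer dense fibre protein ODF2 in mouse sperm tails, measured 17.5 and 3.06 TPM, a log2 ratio of -2.19. Both were therefore lower by factors between those of Tssk1 and Tssk6.

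Tssk5 was the rarest member in each library. Tssk5 (ENSMUSG00000060794; mm10 chromosome 15, 76371952 to 76374938, minus strand) measured 4.25 TPM in wild-type cells and 0.731 TPM in the labelled knockout, a log2 ratio of -1.60. It was the single member below 1 TPM in either library. In TPM it was 5.81-fold lower, close to the 5.72-fold of Tssk4, while its log2 ratio is nearer zero because 1 TPM is added to a lower value.

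**Figure D2:**
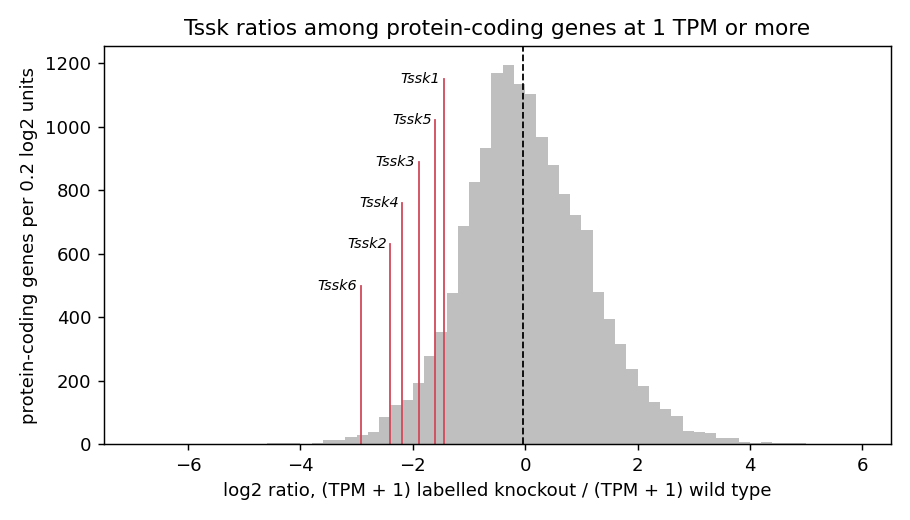
Histogram of the log2 ratio on (TPM + 1), labelled knockout over wild type, for 15000 protein-coding genes that reached 1 TPM in either library, in bins of 0.2; the dashed line is their median and red lines mark the 6 Tssk genes at heights chosen for legibility. All 6 lie in the left tail, from -2.92 (Tssk6) to -1.45 (Tssk1).

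In the order of levels, wild type ran Tssk2, Tssk6, Tssk4, Tssk3, Tssk1 and Tssk5, and the labelled knockout ran Tssk1, Tssk2, Tssk3, Tssk4, Tssk6 and Tssk5. With 1 library per genotype, no neighbours in either order can be separated beyond a spread. Within the wild-type library the members lay between the 27.1 and 63.2 percentiles of protein-coding genes at 1 TPM or more, so they were neither rare nor abundant. Within the labelled knockout the 5 members at 1 TPM or more lay between the 11.5 and 27.5 percentiles.

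The make-up of the family's transcript pool differed in 2 members above all. Tssk6 held 21.7% of the summed level in wild-type cells and 10.9% in the labelled knockout, and Tssk1 held 13.6% and 24.2%. The shares of Tssk4 (18.6% and 18.3%) and Tssk5 (4.51% and 4.38%) were alike in the libraries. Tssk2 held 26.4% and 23.3%, and Tssk3 held 15.3% and 18.8%. Shares within the family do not depend on how the libraries are scaled to each other. They do depend on the gene model behind the level of Tssk1, which is not given, so the size of each share is uncertain.

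**Figure D3:**
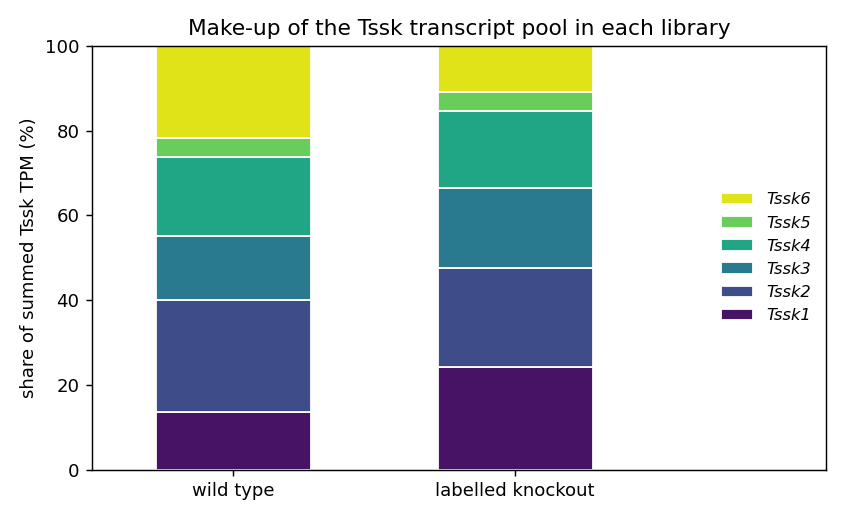
Share of each Tssk gene in the summed TPM of the family (%), as stacked bars for the wild-type and the labelled knockout library. The Tssk1 segment at the bottom is wider in the labelled knockout (24.2% against 13.6%) and the Tssk6 segment at the top is narrower (10.9% against 21.7%).

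The scaling of the libraries bears on how low the family was, but not on its direction. TPM is relative to a total, of which protein-coding genes made up 62.6% in the wild-type library and 49.0% in that of the labelled knockout. Rescaling by the trimmed mean, without mitochondrial and the 20 most abundant genes, or over protein-coding genes alone moved the protein-coding median to 0.23, 0.36 and 0.32. The shares of protein-coding genes at least 2-fold lower and higher, 16.5% and 18.7% as deposited, became 11.1% and 24.3%, 9.78% and 28.1%, and 10.6% and 27.2%. Under the same settings the Tssk median was -1.81, -1.78 and -1.85, and 6 of 6 members were still at least 2-fold lower. Each rescaling applies the same factor to every gene of a library. The distance between the Tssk and protein-coding medians could therefore move only through the added 1 TPM and the genes counted. The rescalings are no check of that distance.

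The proteins that work with the TSSK kinases did not share their ratio as a group. Of 10 listed partner and substrate genes, 4 were at least 2-fold lower and 1 was at least 2-fold higher, beside 16.5% and 18.7% of protein-coding genes and 19.3% and 15% of all genes, with a median log2 ratio of -0.71. These counts depend on scaling, and under the 3 rescalings 2, 1 and 2 were lower and 3, 3 and 3 higher. Tsks, the substrate that TSSK1 and TSSK2 phosphorylate, was nearest to the kinases. Tsks measured 68.8 TPM in wild-type cells and 10.4 TPM in the labelled knockout, 6.61-fold lower with a log2 ratio of -2.61. The level of Tsks was 0.730 times the summed kinases in wild type and 0.623 times in the labelled knockout, since the 6.61-fold difference of Tsks was near the 5.64-fold difference of the summed kinases.

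Other partners were lower by smaller factors. Odf2, a sperm tail fibre protein and TSSK4 substrate, stood at 920.0 and 355.9 TPM (log2 ratio -1.37). Spag16, an axoneme protein that TSSK2 phosphorylates, stood at 176.1 and 72.3 TPM (-1.27). Tsacc, the co-chaperone that activates TSSK6, stood at 167.7 and 72.2 TPM (-1.20). The level of Tsacc was 8.22 times that of Tssk6 in wild type and 39.7 times in the labelled knockout. The latter rests on a Tssk6 level of 1.82 TPM in 1 library. These are ratios of transcripts and do not show the proteins. Ppp1cc, a protein phosphatase catalytic subunit found in a complex with TSKS, stood at 632.1 and 345.1 TPM (-0.87). Pdpk1, the kinase PDK1 that phosphorylates TSSK3 in vitro, stood at 41.0 and 27.6 TPM (-0.56).

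The general chaperones did not follow the kinases. Hsp90aa1, a form of HSP90, the chaperone on which TSSK6 depends, stood at 1916 and 1944 TPM (log2 ratio 0.021), and Hsp90ab1, its other cytosolic form, at 167.5 and 333.6 TPM (0.99). Hspa8, the constitutive HSP70 chaperone, was the partner at least 2-fold higher, at 115.5 and 480.9 TPM (2.05). H2afx, the histone whose phosphorylated form is lost from elongating spermatids of mice without Tssk6, stood at 120.1 and 235.8 TPM (0.97). Chaperones and H2afx are expressed in most cell types, and the summed markers of Leydig, Sertoli and spermatogonial cells were higher in the same library. Their part in these values was not tested.

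**Figure D4:**
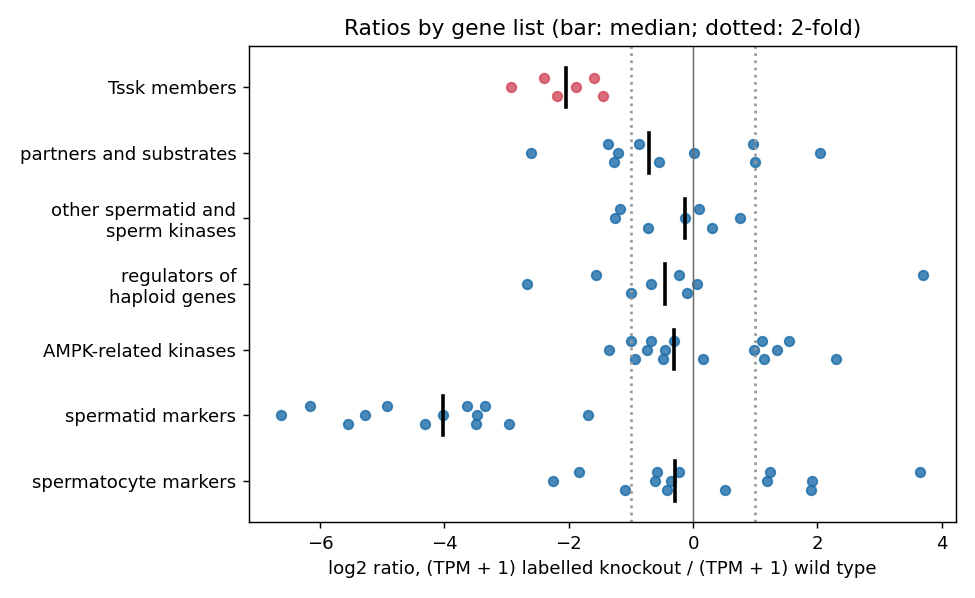
Log2 ratio of each gene that reached 1 TPM in either library, by list: Tssk genes (red), partners and substrates, other kinase and regulator lists and marker lists (blue); vertical bars are medians and dotted lines mark 2-fold in (TPM + 1). The Tssk genes lie wholly left of the 2-fold line with a median of -2.04, the partners are spread from -2.61 to 2.05, and the spermatid markers lie further left with a median of -4.03.

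Other kinases were less uniform than the TSSK family. Of 8 kinases with roles in spermatids or sperm, 7 reached 1 TPM. As deposited 2 of the 7 were at least 2-fold lower and 0 higher, beside 16.5% and 18.7% of protein-coding genes, while under each rescaling 0 were lower and 1 was higher. The median log2 ratio was -0.13 (positive after each rescaling). Prkaca, the catalytic subunit of protein kinase A, stood at 77.0 and 31.6 TPM (-1.26), and Stk33, needed for sperm tail formation, at 265.2 and 116.4 TPM (-1.18). At the other end, Cdk16, a cyclin-dependent kinase needed for sperm shape in mice, stood at 8.40 and 14.8 TPM (0.75), and Gsk3a, a glycogen synthase kinase needed for sperm motility in mice, at 28.8 and 35.8 TPM (0.31). Of 18 kinases related to AMP-activated protein kinase, which belong with the TSSK family to the CAMK group of kinases, 15 reached 1 TPM, of which 1 was lower and 5 were higher, beside the same 16.5% and 18.7% of protein-coding genes. Their median was -0.30, and it turned positive under 2 of the 3 rescalings. Hunk stood at 12.8 and 4.38 TPM (-1.35) and Prkaa1, a catalytic subunit of AMP-activated protein kinase, at 12.6 and 5.79 TPM (-0.997). Nuak2 stood at 0.350 and 5.63 TPM (2.30), and Melk, a kinase of dividing cells, at 0.967 and 4.70 TPM (1.54).

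Regulators that switch on genes of haploid germ cells differed in both directions. Of 8 listed, 2 were at least 2-fold lower and 1 was higher, with a median log2 ratio of -0.46. With 16.5% of protein-coding genes lower and 18.7% higher, these counts are near the background. Fhl5, which encodes ACT, the testis co-activator of the transcription factor CREM, measured 18.2 TPM in wild-type cells and 2.02 TPM in the labelled knockout, 9.01-fold lower (-2.67). Tbpl1, a TATA-binding-protein-like factor needed for spermatid development in mice, stood at 477.2 and 161.2 TPM (-1.56). Taf7l, an X-linked TFIID subunit of germ cells, stood at 3.57 and 58.6 TPM (3.71), and Brdt, the testis bromodomain protein, at 259.8 and 271.4 TPM (0.063). Fhl5 and Tbpl1 lay within the range of the Tssk ratios, and the other 6 regulators lay above it. Levels of these factors do not show what binds at the Tssk genes.

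Of the nearest and overlapping genes at the Tssk loci, Fam229a had a ratio within the range of the Tssk genes and the others that reached 1 TPM lay above that range. The nearest protein-coding gene on each side and the overlapping genes made 12 neighbours, of which 11 reached 1 TPM. Of these 11, 2 (Fam229a and Hgh1) were at least 2-fold lower and 1 (Tm9sf1) higher, with a median log2 ratio of -0.034, and these counts too are near the 16.5% and 18.7% of protein-coding genes. Fam229a starts 168 bases from Tssk3 on the opposite strand by the table's coordinates, and it measured 35.3 TPM in wild-type cells and 5.97 TPM in the labelled knockout, 5.92-fold lower (-2.38). By these coordinates Tssk3 and Fam229a form a divergent pair, and both were low. The RefSeq span of Tssk3 is longer than that of the table, 2723 bases up to 129491730, and reaches into the span that the table gives Fam229a. Among genes further off but starting within 30 kb, named after their values were seen, Gm35339 near Tssk5 had a log2 ratio of -2.22 and Marcksl1 near Tssk3 one of 2.12.

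Other close neighbours stood apart from their Tssk gene. Dgcr2 starts 78 bases from Tssk1 on the opposite strand by the table's coordinates, and it stood at 24.5 and 26.4 TPM (0.10). Dgcr14, which ends 687 bases past Tssk2, stood at 6.24 TPM in each library, with a log2 ratio of -0.00028 (positive after each rescaling). Ndufa13, a subunit of mitochondrial complex I that overlaps Tssk6, stood at 18.8 and 17.1 TPM (-0.13, positive after each rescaling), and Yjefn3, which also overlaps it, at 2.92 and 1.41 TPM (-0.70). Gatad2a, on the other side of Tssk6, stood at 19.9 and 19.4 TPM (-0.034, positive after each rescaling). A divergent or overlapping position was therefore found with a like ratio at Tssk3 and with an unlike ratio at Tssk1 and Tssk6.

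The remaining neighbours lay further off or end to end by the table's coordinates. Hgh1, which ends 514 bases from the end of Tssk5, stood at 23.9 and 11.0 TPM (-1.06, and -0.79, -0.69 and -0.75 under the 3 rescalings, past 2-fold in none of these), and Mroh1, on its other side, at 77.1 and 81.8 TPM (0.083). Bsdc1 beside Tssk3 stood at 32.8 and 23.2 TPM (-0.48). Around Tssk4, Tm9sf1 stood at 8.88 and 19.8 TPM (1.07) and Mdp1 at 1.30 and 2.70 TPM (0.69, and past 2-fold under 2 of the 3 rescalings), both higher where Tssk4 was lower. The RefSeq span of Tssk4 is longer than that of the table, 8889 bases from 55643651, which reaches into the span that the table gives Tm9sf1.

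**Figure D5:**
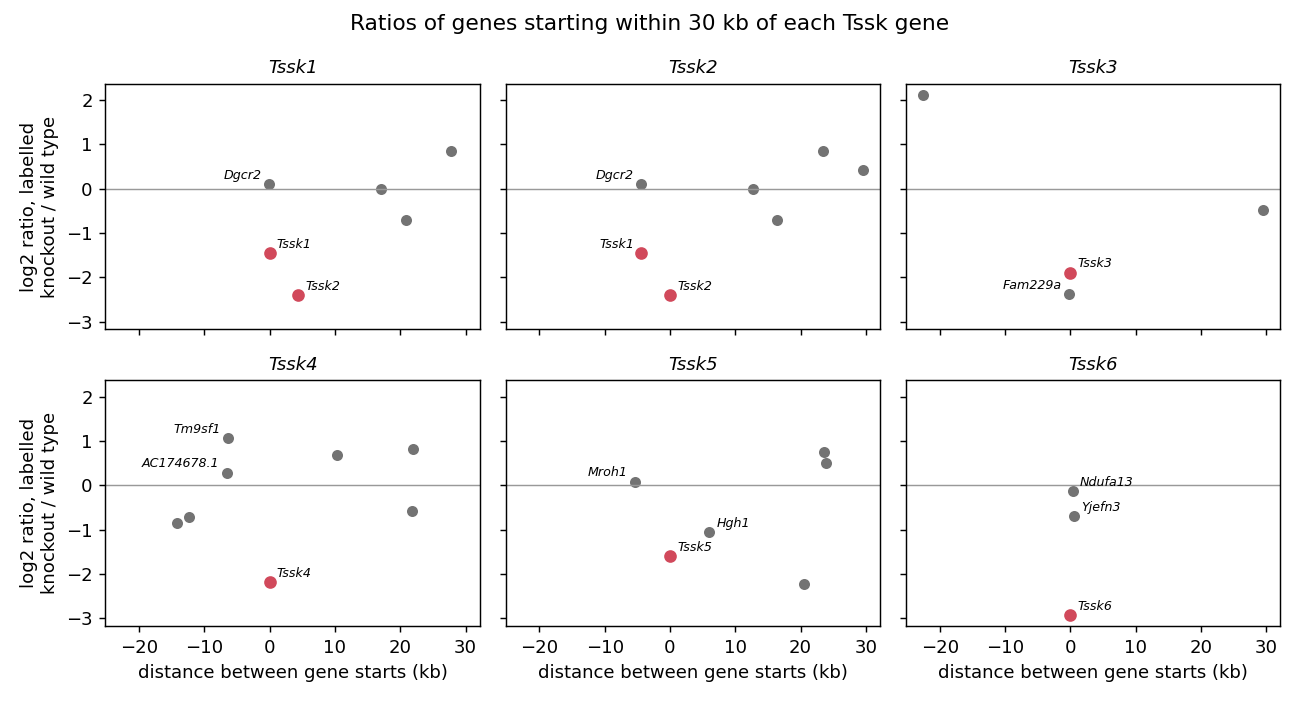
Log2 ratio (labelled knockout over wild type, on TPM + 1) of genes at 1 TPM or more that start within 30 kb of each Tssk gene, against the distance between gene starts in kb (positive in the direction in which the Tssk gene is transcribed); Tssk genes are red and the others grey. Fam229a lies beside Tssk3 at -2.38 and the unlabelled Gm35339, further from Tssk5, at -2.22, while Dgcr2 beside Tssk1 (0.10) and Ndufa13 beside Tssk6 (-0.13) lie near 0.

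The promoters of Tssk1 and Tssk2 resembled each other just before the start of transcription. RefSeq promoter windows (GRCm38.p6, 250 bases before to 50 after the start) were found for 5 members, Tssk1, Tssk2, Tssk3, Tssk4 and Tssk6. The window of Tssk3 lies inside the span that the table gives Tssk3. That of Tssk6 lies inside an untranslated exon of Ndufa13, on the opposite strand. Both windows thus lie inside annotated genes and are not printed. In local alignments of the upstream 250 bases, the best match of Tssk1 and Tssk2 had 41 identical bases in 52 columns (78.8%) and a score of 26, against scores of 9 to 13 for the other 9 pairs. The matched stretches lie at chr16:17894150-17894201 for Tssk1 and chr16:17898574-17898622 for Tssk2, on the plus strand. Capitals mark the bases that are identical in the alignment.
Tssk1: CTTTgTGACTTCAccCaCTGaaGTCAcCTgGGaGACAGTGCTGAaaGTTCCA
Tssk2: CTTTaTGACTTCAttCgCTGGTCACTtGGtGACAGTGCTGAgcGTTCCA
With the base before the RefSeq start counted as -1, the Tssk1 stretch ends at -2 and lies between the starts of Tssk1 and Dgcr2, and the Tssk2 stretch ends at -15. Tssk1 and Tssk2 had log2 ratios of -1.45 and -2.40, from 1 library per genotype. A link between the shared stretch and these values was not tested.

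The 5 windows were searched on both strands for 6 motifs. The CREM/CREB element TGACGTCA was in 0 of 5, and it occurred in 1.79% of all 32851 windows of the same length. Its shorter form TGACG, which is part of the full element, was in Tssk6, from -73 to -69, and in 20.8% of all windows. ACAAT, read by SOX factors, was in Tssk2, Tssk3 and Tssk6 and in 31.0% of all windows. GTTGCC, part of the site of RFX factors, AACNGT, read by MYB factors, and TATAAA were in 0 of 5, and in 12.5%, 26.1% and 13.6% of all windows. A match is a run of letters only.

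The protein-coding genes most like each Tssk gene were found by the Euclidean distance of log2(TPM + 1) over the 2 libraries, 2 per member. With 2 libraries this measure says only that both levels were near. For Tssk1 they were Fer1l5 (distance 0.049) and Ankrd55 (0.051), for Tssk2 1700034I23Rik (0.020) and Cst8 (0.060), and for Tssk3 Upk3bl (0.031) and 1700113H08Rik (0.11). For Tssk4 they were Fscb (0.078) and Dok7 (0.084), for Tssk5 Cdh23 (0.028) and Adam25 (0.043), and for Tssk6 4930404N11Rik (0.024) and Fam187b (0.041). Cst8, a cystatin of the male reproductive tract, stood at 23.8 and 3.88 TPM, against 24.9 and 3.90 TPM for Tssk2. Fam187b stood at 19.8 and 1.79 TPM, against 20.4 and 1.82 TPM for Tssk6.

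The cells behind the libraries bear on every value above. All 14 spermatocyte markers reached 1 TPM in at least 1 library. Their summed level was 6694 TPM in wild-type cells and 5157 TPM in the labelled knockout. Ldhc, the largest part of both sums, stood at 3398 and 1585 TPM, so the sums lean on that gene. Of the 14, 3 (Ccna1, Pgk2 and Ldhc) were at least 2-fold lower, beside 16.5% of protein-coding genes. Another 5 (Dmc1, Sycp1, Meiob, Hormad1 and Sycp3) were at least 2-fold higher, beside 18.7%. All 13 spermatid markers were lower in the labelled knockout, by log2 ratios of -6.63 (Prm1) to -1.69 (Acrv1), and they summed to 2983 and 99.7 TPM, 29.9-fold lower. None of the 13 was listed at 0 in either library. The summed Tssk level was 5.64-fold lower. On the (TPM + 1) scale all 6 Tssk ratios lay above that of Oaz3 (-2.96), the spermatid marker next to Acrv1. For Tssk6 this order rests on the added 1 TPM. In TPM Tssk6 was 11.2-fold lower, past the 8.06-fold of Oaz3 and the 11.0-fold of Gapdhs. Markers of other cells were higher in the labelled knockout, with sums of 12.0 and 64.3 TPM for 9 spermatogonial genes, 42.2 and 277.7 TPM for 8 Sertoli genes, 60.0 and 1567 TPM for 6 Leydig genes, 2.32 and 22.9 TPM for 6 macrophage genes and 1.27 and 4.77 TPM for 4 peritubular myoid genes. One marker, C1qa of macrophages, was listed at 0 in wild type. Smc1b, the gene named as deleted, stood at 76.1 and 62.9 TPM, so the level does not show the deletion, and gene-level TPM cannot show whether a deleted part is present. Smc1a, the gene named as overexpressed, stood at 0.510 and 28.8 TPM.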

How the data were processed

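RNA was sequenced from 2 libraries of sorted mouse spermatocytes, grouped by genotype label. Per the labels, RNA was depleted of ribosomal RNA and strand-specific libraries were read as single ends of 75 bases to at least 40000000 reads. The deposited table gives TPM per gene, and each column sums to 1000000. The submitters' processing notes name kallisto 0.43.1, bcl2fastq 2.19.1, TopHat, GSNAP and mm10, with no role or order. The authors also list, per the file headers, gene length and G+C content in percent. TPM keeps no counts, so depth per gene is unknown and no interval, detection limit or test was computed. Where a symbol repeated, the entry with the higher mean TPM was used.

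The members, lists and alternatives were chosen with earlier results of these data known. Named genes are the members, all partners, the 2 highest and 2 lowest of each other list, every neighbour at 1 TPM or more, Smc1b, Smc1a and the 2 genes most like each member. Comparisons were the ratios and counts defined in the report. The ratio code was run on known changes without noise, put into genes more abundant than any Tssk gene. That run checks the arithmetic and says nothing on the precision of the values reported. Coding sequences were aligned globally and promoters locally (match 1, mismatch -1, gap opening -3, extension -1). Python 3.11.15, NumPy 2.4.6, pandas 2.3.3, Matplotlib 3.10.9 and Biopython 1.88 were used.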

Additional observations from a re-analysis of the deposited data

How the results depend on the processing

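Alternatives were a pseudocount of 0.1 or 5 TPM, no filter or one of 5 TPM, 3 rescalings and counting at 4-fold. Of all 140 alternative values computed, 105 stayed near the value as reported. For counts this means within 1.5 times. For log2 ratios it means a shift of at most 1.5-fold before the log, on the same side of zero. Medians near zero could therefore shrink and still count as near. The median of the regulators, for example, went from -0.457 to -0.053 under the abundant-gene rescaling. Every Tssk ratio kept its sign under each pseudocount and rescaling run. With a pseudocount of 5 TPM the log2 ratios of Tssk2, Tssk3, Tssk4, Tssk5 and Tssk6 were -1.75, -1.25, -1.48, -0.69 and -1.90, their median was -1.37 and 4 members were 2-fold lower. With 0.1 TPM that of Tssk5 was -2.39. At 4-fold, 3 members were lower. Of the partners, 2, 1 and 2 were lower and 3, 3 and 3 higher under the trimmed-mean, abundant-gene and protein-coding rescalings, and 1 was lower at 4-fold. Of the AMPK-related kinases, 2 were lower at 0.1 TPM, 0 at 5 TPM and 0 at 4-fold, while 0 were higher at 5 TPM, 3 with a filter of 5 TPM and 1 at 4-fold. Their median was 0.065 without a filter, and 0.37 and 0.33 under the abundant-gene and protein-coding rescalings. Of the other spermatid and sperm kinases, 0 were lower and 1 higher under each rescaling, with medians of 0.16, 0.28 and 0.22, and 0 were lower at 4-fold. Of the regulators, 1 was lower at 4-fold. The causes were not tested. Leaving out a replicate was not possible with 1 library per genotype. No paired analysis was possible because the genotypes share only 1 replicate number. Depth per gene is unknown, and the precision of low values such as that of Tssk5 with it.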
